A study of Mus musculus with 12 samples.

Results

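The tricarboxylic acid cycle was followed through 9 of its genes in the livers and tumors of aged mice that express Tert or a catalytically inactive Tert from the p21 promoter. The genes are Cs, Idh3a, Idh3b, Idh3g, Ogdh, Dlst, Suclg1, Fh1, and Mdh2, which are 9 of the 24421 gene symbols counted. All 9 were among the 13822 genes tested in tumors against livers. They were named as a pathway and selected on measured values, since the level of Idh3a had been seen to differ between Ctnnb1-mutated and Egfr- or Hras-mutated tumors. That contrast is therefore given as a description, without a test.

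The cycle oxidizes acetyl groups in the mitochondrial matrix. Citrate synthase (Cs) joins acetyl-CoA to oxaloacetate, and isocitrate dehydrogenase 3 oxidizes isocitrate with NAD through a catalytic α subunit (Idh3a) and the β and γ subunits (Idh3b and Idh3g). The 2-oxoglutarate dehydrogenase complex (Ogdh, Dlst, and the shared subunit Dld) makes succinyl-CoA, from which succinyl-CoA synthetase (Suclg1 with either Suclg2 or Sucla2) makes succinate. Succinate dehydrogenase (Sdha to Sdhd), fumarate hydratase (Fh1), and malate dehydrogenase 2 (Mdh2) return the carbon to oxaloacetate. In liver the cycle also supplies carbon for glucose and lipid synthesis.

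Poly(A) RNA was counted per gene in 6 tumors and in non-tumoral liver from each of the 6 mice that bore them, with 14571716 to 26170661 reads per library. In p21+/Tert mice Tert is driven by the promoter of Cdkn1a (p21), and in p21+/TertCi mice the same promoter drives the catalytically inactive TertCi. All 6 mice were aged, received Standard Diet, and carried 1 of these alleles, so no group without the transgene was compared. The 4 p21+/Tert mice gave the adenoma T-HCA992, the carcinomas T-HCC662 and T-HCC941, and T-HCC663, and the 2 p21+/TertCi mice gave TCi-HCC981 and TCi-HCA984. NT followed by the number of a tumor stands for the non-tumoral liver of its mouse. HCC stands for hepatocellular carcinoma and HCA for hepatocellular adenoma. The paper names T-HCC663 as a carcinoma, but its list of diagnoses gives an adenoma for that mouse. By the mutations described for them, T-HCC662 and T-HCC663 form the Ctnnb1-mutated class, T-HCC941 (Egfr) and TCi-HCC981 (Hras) the Egfr- or Hras-mutated class, and T-HCA992 and TCi-HCA984 carry none of these mutations. Both Ctnnb1-mutated tumors are p21+/Tert, so that this class and that genotype cannot be told apart in them. Each class has 2 tumors and the p21+/TertCi genotype has 2 mice.

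The tissue carried its markers in every library. The summed level of 9 hepatocyte genes was 46220 to 72670 CPM (read counts brought to a common library size by the TMM method) in livers, and in tumors it ran from 23030 CPM (T-HCC663) to 122308 CPM (T-HCC941). Without Alb the 8 other genes summed to 28235 to 52694 CPM in livers, to 17047 and 26902 CPM in the Ctnnb1-mutated tumors, both below all livers, and to 44110 to 58218 CPM in the 4 other tumors, which overlapped the livers. Macrophage markers (8 genes) summed to 119 to 1171 CPM in livers and 119 to 862 CPM in tumors, but they did not move together. Timd4 and Marco were below all livers in 5 tumors and Clec4f in 4, whereas Cd14 was above all livers in 5. Adgre1 and Cd68 were above all livers in 1 tumor, and Csf1r and Lyz2 in 0. Endothelial markers (6 genes) summed to 53.1 to 165 CPM in livers and 50.8 to 256 CPM in tumors. Stellate and fibroblast markers (7 genes) summed to 56.1 to 262 and 30.5 to 371 CPM. The stellate and fibroblast sum was 30.5 and 74.0 CPM in the Ctnnb1-mutated tumors and 147 to 371 CPM in the others. The endothelial sum was 50.8 and 95.8 CPM against 134 to 256 CPM. The macrophage sum did not part these tumors, with 119 and 516 CPM against 215 to 862 CPM. T and B cell markers (7 genes) reached 40.3 CPM in livers and 25.3 CPM in tumors. Bile duct markers (5 genes) summed to 50.9 to 134 CPM in livers and reached 1064 CPM in T-HCA992, of which Spp1 made 1037 CPM. In that tumor Sox9 (21.9 CPM) and Epcam (2.58 CPM) were also above all livers, which reached 14.7 and 1.85 CPM. Krt7 (1.22 CPM) and Krt19 (1.00 CPM) lay within their liver ranges there. Without Spp1 the 4 other genes summed to 9.33 to 21.1 CPM in livers. They summed to 3.92 and 4.91 CPM in the Ctnnb1-mutated tumors and to 23.7 to 56.6 CPM in the 4 other tumors. Sox9 alone made 21.6 to 56.3 CPM in the latter. In TCi-HCC981, which had the highest of these sums, Krt7 and Krt19 were 0 CPM and Epcam 0.257 CPM, all below all livers. The part of cell composition in the values below was not tested, and in bulk RNA fewer hepatocytes and less RNA per hepatocyte cannot be told apart.

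The genes lie on 9 chromosomes (GENCODE on GRCm38). Cs is at chr10:128337734-128362479, Idh3a at chr9:54586334-54604661, Idh3b at chr2:130279309-130284547, Idh3g at chrX:73778963-73786897, and Ogdh at chr11:6291633-6356642. Dlst is at chr12:85110833-85134845, Suclg1 at chr6:73248382-73276911, Fh1 at chr1:175600374-175625635, and Mdh2 at chr5:135778480-135790398. In an alignment of the longest transcript of each, no transcript of another gene was recorded with at least 90% identity over 300 bases. That alignment held no positive control, so it does not exclude a near-identical transcript. The exons of Idh3b overlap those of Nop56, on the other strand, by 5 bases.

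The promoters of Cs, whose level followed that of Idh3a, and of Fh1, the only member that passed the test, are shown for comparison. They are the 250 bases before the RefSeq start on GRCm38.p6, printed in the direction of transcription, at chr10:128337477-128337726 on the plus strand for Cs and chr1:175625636-175625885 on the minus strand for Fh1. RefSeq promoters were held for 8 of the 9 genes. Capitals mark CCAAT or its reverse complement ATTGG.
Cs: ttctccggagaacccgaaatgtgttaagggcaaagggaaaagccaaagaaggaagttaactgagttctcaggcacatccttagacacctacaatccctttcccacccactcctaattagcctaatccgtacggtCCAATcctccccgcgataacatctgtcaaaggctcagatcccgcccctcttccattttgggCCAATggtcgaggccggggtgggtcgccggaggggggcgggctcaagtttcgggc
Fh1: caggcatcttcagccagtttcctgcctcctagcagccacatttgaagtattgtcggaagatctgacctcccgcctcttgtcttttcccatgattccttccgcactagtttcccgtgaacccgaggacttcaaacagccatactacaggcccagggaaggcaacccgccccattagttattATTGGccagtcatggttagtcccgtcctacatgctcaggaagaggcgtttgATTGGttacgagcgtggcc
Each holds 2 CCAAT boxes, a motif present on either strand in 33.8% of the 32851 promoters of this length. The GC box GGGCGG, found in 32.7% of promoters on either strand, occurs 2 times in that of Cs and 1 time in that of Fh1. The ETS motif CCGGAAG (6.91% of promoters), the NRF1 core GCATGCGC (2.26%), the ERR element TCAAGGTCA (0.387%), and the TCF element ATCAAAG (3.21%) were not found in either window on either strand. These matches are a description of letters in the windows.

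In livers the members stood in a wide order of abundance per length of exon. Mean levels over the 6 livers were 50.8 CPM per kb for Mdh2, 48.0 for Idh3b, 45.6 for Fh1, 41.2 for Ogdh, 29.2 for both Suclg1 and Idh3g, 25.7 for Cs, 19.3 for Dlst, and 6.92 for Idh3a, on the same scale. The ranges of neighbors in this order overlapped except at its end, where Dlst was 15.5 to 22.6 CPM per kb and Idh3a 6.17 to 7.64. The catalytic subunit gene Idh3a was thus the least abundant of the 9 in every liver, by the union of annotated exons as length.

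In Idh3a the tumors parted on both sides of the livers. Its level was 31.3, 35.1, 35.8, and 35.7 CPM in the p21+/Tert livers NT662, NT663, NT941, and NT992 and 33.9 and 38.7 CPM in the p21+/TertCi livers NT981 and NT984. T-HCC662 had 99.6 CPM and T-HCC663 had 62.6 CPM, whereas T-HCC941 had 13.5 CPM and TCi-HCC981 had 14.1 CPM. Both Ctnnb1-mutated tumors were above all livers, and the 4 other tumors were below all livers, T-HCA992 at 23.4 CPM and TCi-HCA984 at 22.0 CPM. The log2 fold change of Ctnnb1-mutated over Egfr- or Hras-mutated tumors was 2.56. In that fit 8.07% of 15182 genes passed the threshold. This is the difference on which the genes were selected, and it is not tested here. In the same contrast 8 of 9 hepatocyte markers, 7 of 7 stellate and fibroblast markers, and 5 of 6 endothelial markers had lower levels in the Ctnnb1-mutated tumors, and the part of cell composition was not tested.

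**Figure D1:**
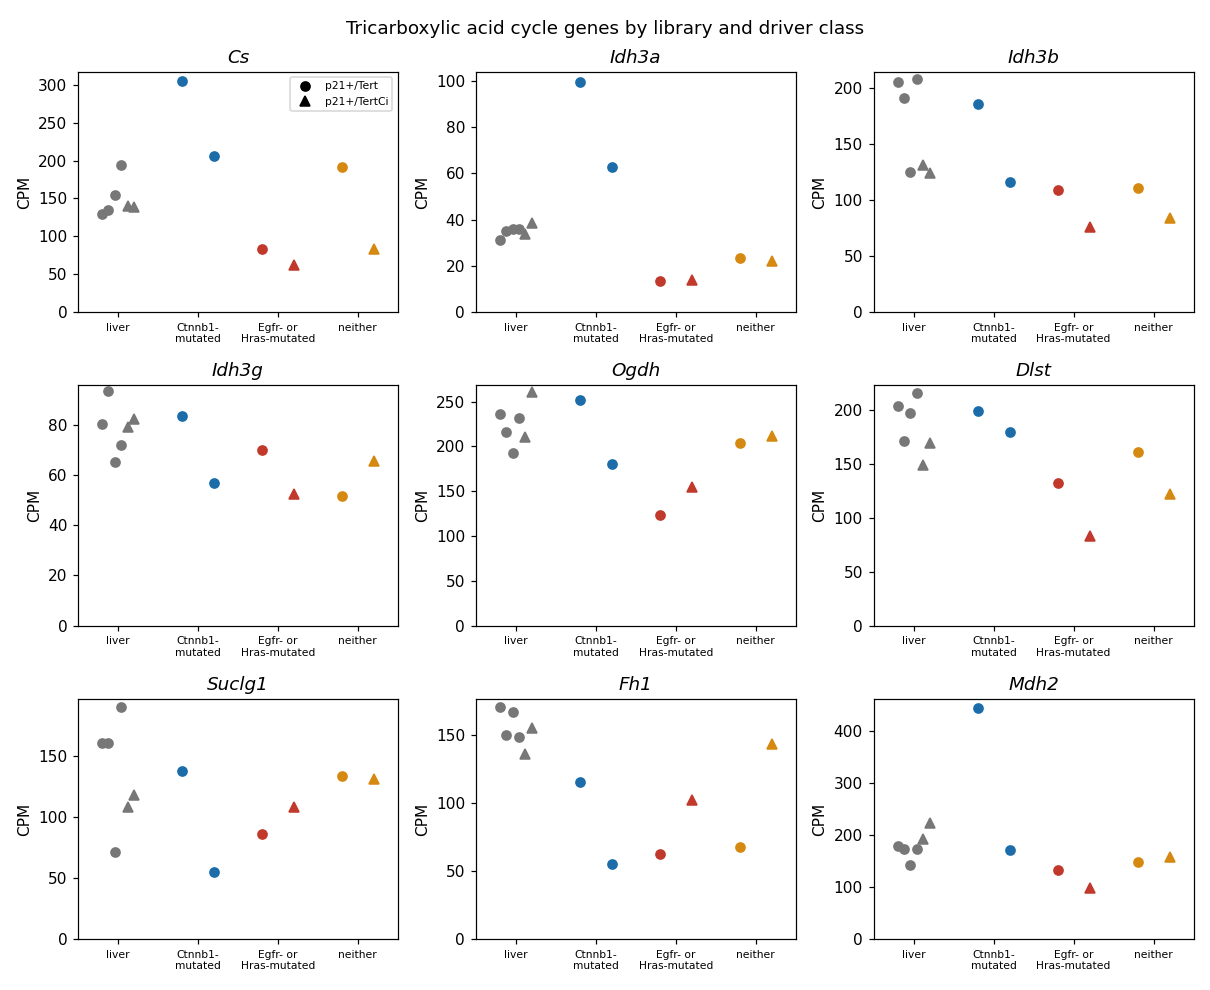
Level of each of the 9 genes (y axis, CPM, linear from 0) in each of the 12 libraries (1 point each), with livers and the 3 driver classes of tumors on the x axis, circles for p21+/Tert and triangles for p21+/TertCi. Idh3a was 31.3 to 38.7 CPM in livers, 62.6 and 99.6 CPM in Ctnnb1-mutated tumors, and 13.5 and 14.1 CPM in Egfr- or Hras-mutated tumors.

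The spread of Idh3a was narrow in livers and wide in tumors. The SD of log2(CPM + 1) was 0.10 over the 6 livers and 1.14 over the 6 tumors, against medians of 0.32 and 0.44 over all genes tested. Relative to the liver of the same mouse, the log2 ratio of Idh3a was 1.64 in T-HCC662 and 0.82 in T-HCC663. It was -1.34 in T-HCC941, -1.21 in TCi-HCC981, -0.59 in T-HCA992, and -0.79 in TCi-HCA984. The median log2 ratio of the 754 tested genes on chromosome 9, where Idh3a lies, was between -0.04 and 0.09 in 5 of these tumors and -0.27 in T-HCC941, whose part in the value of Idh3a was not tested.

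The other subunit genes of isocitrate dehydrogenase 3 had other profiles than Idh3a, which is given as a description. Idh3b was 206, 191, 125, 208, 131, and 125 CPM in NT662, NT663, NT941, NT992, NT981, and NT984, and 186, 116, 109, 75.6, 110, and 83.7 CPM in T-HCC662, T-HCC663, T-HCC941, TCi-HCC981, T-HCA992, and TCi-HCA984. Its level was lower than in the own liver in 6 of 6 mice, and 5 tumors, all but T-HCC662, were below all livers. A run of the same sign in 6 mice was shared by 22.5% of all genes tested in either direction. Idh3g ranged from 65.3 to 93.6 CPM in livers (median 79.7) and from 51.8 to 83.4 CPM in tumors (median 61.1), with 3 tumors below all livers. The tested genes on its chromosome X had median log2 ratios to the own liver of 0.42 in T-HCC941 and 0.23 in TCi-HCC981. In the other tumors they were between -0.03 and 0.09. From exome data the paper describes a gain on chromosome X in T-HCC663 and T-HCC941. The part of these shifts in Idh3g and its ratios was not tested. The ratio of Idh3a to Idh3b, each per kb of exon, was 0.103 to 0.210 in livers, 0.362 and 0.365 in T-HCC662 and T-HCC663, and 0.0834 and 0.126 in T-HCC941 and TCi-HCC981. The ratio of Idh3a to Idh3g was 0.200 to 0.292 in livers, 0.636 and 0.589 in the Ctnnb1-mutated tumors, and 0.103 and 0.143 in the Egfr- or Hras-mutated tumors. The ratio of Idh3b to Idh3g was 1.19 to 2.28 in livers and 1.01 to 1.76 in tumors, which overlapped.

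**Figure D2:**
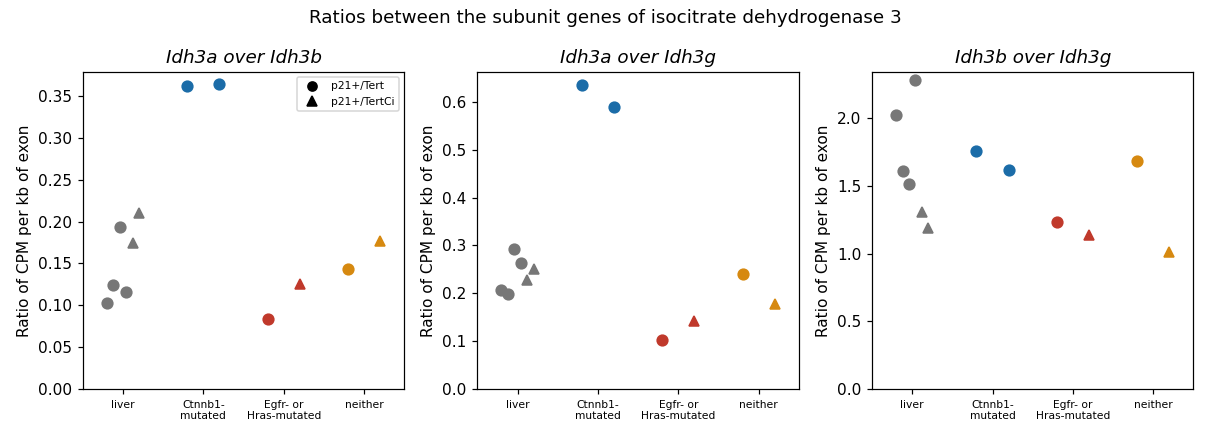
Ratios between the isocitrate dehydrogenase 3 subunit genes (y axis, ratio of CPM per kb of exon, linear from 0) in the 12 libraries, by driver class on the x axis, circles for p21+/Tert and triangles for p21+/TertCi. Idh3a over Idh3b was 0.362 and 0.365 in the Ctnnb1-mutated tumors and at most 0.210 in livers.

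Citrate synthase had the profile closest to that of Idh3a among the members. Cs was 130, 135, 154, 195, 140, and 138 CPM in NT662, NT663, NT941, NT992, NT981, and NT984. T-HCC662 had 305 CPM, T-HCC663 207 CPM, T-HCA992 191 CPM, T-HCC941 83.7 CPM, TCi-HCA984 83.4 CPM, and TCi-HCC981 61.6 CPM. Both Ctnnb1-mutated tumors were above all livers, and T-HCC941, TCi-HCC981, and TCi-HCA984 were below all of them, whereas T-HCA992 lay within the liver range. By the root mean square (RMS) difference of centred log2(CPM + 1) over the 12 libraries, Cs ranked 32 among 13821 other genes in likeness to Idh3a (RMS 0.37) and Mdh2 ranked 82 (RMS 0.43). Suclg1 (rank 8214) and Fh1 (rank 7298) were the least like it among the members. These ranks hold the contrast on which the genes were selected and are a description.

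Among the 5 genes most like Idh3a over the 12 libraries were Cdh2, which encodes N-cadherin (RMS 0.26), Ccdc162 (0.28), Aldh1a7, an aldehyde dehydrogenase (0.28), and Fam21 (0.30). Cdh2 was 62.3 to 89.2 CPM in livers, 161 and 103 CPM in T-HCC662 and T-HCC663, and 38.3 to 47.5 CPM in the 4 other tumors. All 12 points share 1 scaling, and tumors and livers come from the same mice.

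Malate dehydrogenase 2 stood out in a single tumor. Mdh2 was 143 to 223 CPM in livers (median 177) and 445 CPM in T-HCC662, whereas T-HCC663, the other Ctnnb1-mutated tumor, had 172 CPM, within the liver range. T-HCC941 (133 CPM) and TCi-HCC981 (97.4 CPM) were below all livers, and T-HCA992 (148 CPM) and TCi-HCA984 (158 CPM) were not. The tested genes on chromosome 5, where Mdh2 lies, had median log2 ratios to the own liver of 0.20 in T-HCC941 and -0.16 in TCi-HCC981. In the other tumors they were between -0.03 and 0.03, and the part of these shifts in Mdh2 was not tested. The described log2 fold change of Ctnnb1-mutated over Egfr- or Hras-mutated tumors was 1.82 for Cs and 1.43 for Mdh2, and the latter was 0.57 without T-HCC662. For the other members it was 0.82 for Dlst, 0.71 for Idh3b, 0.64 for Ogdh, 0.20 for Idh3g, 0.06 for Fh1, and below 0.01 in size for Suclg1. With 1 of the 4 tumors left out, that of Suclg1 ran from -0.82 to 0.51, that of Fh1 from -0.58 to 0.49, that of Idh3g from -0.11 to 0.45, and that of Idh3b from 0.33 to 1.01. With the mouse as a block it was -0.996 for Suclg1 and 0.08 for Idh3b. These alternatives were chosen after seeing the data, and no order of these 4 genes is read from the contrast.

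**Figure D3:**
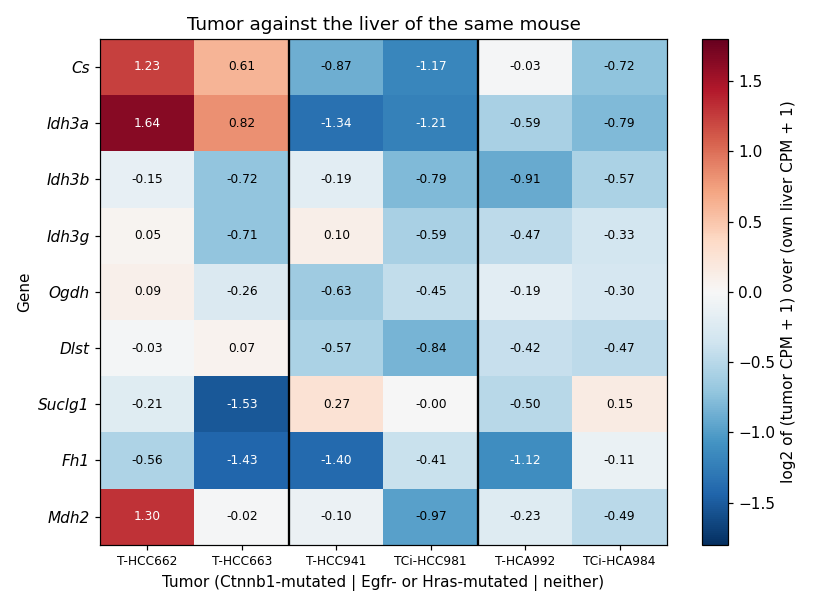
Log2 ratio of (CPM + 1) in each tumor over that in the liver of the same mouse, for the 9 genes (rows) and 6 tumors (columns), red for higher and blue for lower in the tumor, with lines between the driver classes. Cs and Idh3a were higher in both Ctnnb1-mutated tumors and lower in the 4 others, although the ratio of Cs in T-HCA992 was only -0.03. Fh1 and Idh3b were lower in 6 of 6 tumors, a run of the same sign shared by 22.5% of all genes tested in either direction.

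Across all 6 tumors and 6 livers, the comparison that asks how the cycle genes differ in tumor tissue, Fh1 fell. Fumarate hydratase RNA was 171, 150, 167, 148, 136, and 155 CPM in NT662, NT663, NT941, NT992, NT981, and NT984. The tumors T-HCC662, T-HCC663, T-HCC941, TCi-HCC981, T-HCA992, and TCi-HCA984 had 116, 55.3, 62.5, 103, 67.9, and 143 CPM. It was lower than in the own liver in 6 of 6 mice, a run of the same sign shared by 22.5% of all genes tested in either direction, and 5 tumors, all but TCi-HCA984, were below all livers. Fh1 changed by -0.77 ± 0.23 on the log2 scale (SE, adjusted p = 0.0497 by edgeR's quasi-likelihood test with Benjamini-Hochberg adjustment), or 1.70-fold lower.

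The call of Fh1 was near the threshold. Leaving out any liver, or T-HCC663, T-HCC941, TCi-HCC981, or T-HCA992, ended it (10 of 12 fits), with adjusted p from 0.0124 to 0.104 and log2 fold changes from -0.95 to -0.65 over all 12 such edgeR fits. The tested genes on chromosome 1, where Fh1 lies, had median log2 ratios to the own liver of 0.38 in T-HCC941 and 0.41 in TCi-HCC981. In the other tumors they were between -0.01 and 0.05. The ratio of Fh1 itself was -1.40 in T-HCC941 and -0.41 in TCi-HCC981, and the part of these chromosome-wide shifts was not tested.

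Fh1 was the only 1 of the 9 members that passed the test in tumors against livers, in which 10.7% of 13822 genes passed (936 higher and 541 lower). Idh3b changed by -0.54 ± 0.23 on the log2 scale (SE, adjusted p = 0.157, edgeR), and it passed when each tumor was paired with its own liver by a block for the mouse (-0.57, adjusted p = 0.0383, edgeR), which raised the members called from 1 to 2. The liver of the mouse of T-HCC662 was assigned by elimination, and without both libraries of that mouse the block gave -0.65 for Idh3b (adjusted p = 0.0358) and -0.91 for Fh1 (adjusted p = 0.0468, edgeR). Both genes were lower in 5 of 5 mice, a run whose share over all genes was not computed. In these 5 mice without the block neither passed (adjusted p = 0.0739 for Idh3b and 0.0774 for Fh1, edgeR), and both fits were chosen after seeing the data. Without T-HCC662 alone the adjusted p of Idh3b was 0.0312 (edgeR). Idh3g (-0.32 ± 0.15, SE), Dlst (-0.34 ± 0.20), Ogdh (-0.27 ± 0.18), and Suclg1 (-0.31 ± 0.27) did not pass. The values of Cs (0.05 ± 0.35, SE), Mdh2 (0.08 ± 0.31), and Idh3a (0.15 ± 0.44) had wide intervals, that of Idh3a from -0.73 to 1.03 (2 SE on each side), and their signs turned when T-HCC662 was left out or the mouse was a block. The median over the members was -0.31, against 0.01 over all genes tested. None of the 9 had tumors and livers that did not overlap, as 5.11% of the genes tested had.

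**Figure D4:**
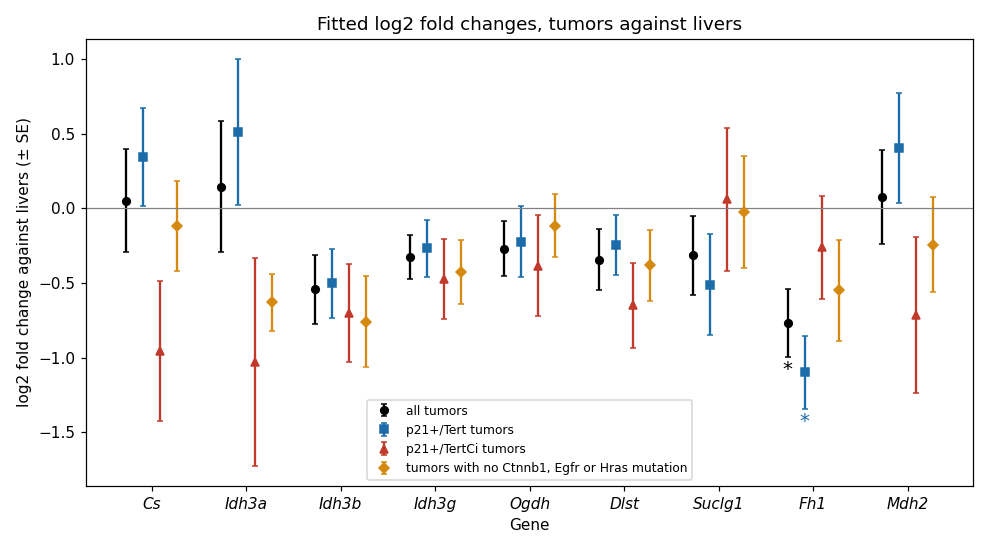
Log2 fold change against livers (y axis, ± SE from the edgeR fit) of the 9 genes (x axis) for all tumors, p21+/Tert tumors, p21+/TertCi tumors, and tumors without a Ctnnb1, Egfr, or Hras mutation, with an asterisk where the adjusted p passed 0.05. Fh1 passed in all tumors (-0.77) and in p21+/Tert tumors (-1.10).

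The remaining members varied among tumors within smaller ranges. Ogdh, the first enzyme of the 2-oxoglutarate dehydrogenase complex, was 193 to 261 CPM in livers (median 224) and 124 to 252 CPM in tumors (median 192), with T-HCC663, T-HCC941, and TCi-HCC981 below all livers. Dlst, its succinyltransferase, was 149 to 216 CPM in livers (median 184) and 82.8 to 199 CPM in tumors (median 147), with T-HCC941, TCi-HCC981, and TCi-HCA984 below all livers. In both genes the Egfr- or Hras-mutated tumors were below all livers. Suclg1, the α subunit of succinyl-CoA synthetase, was 161, 161, 71.4, 190, 109, and 118 CPM in NT662, NT663, NT941, NT992, NT981, and NT984. In tumors it was 55.1 CPM in T-HCC663, 86.0 CPM in T-HCC941, and 108 to 138 CPM in the 4 others. Suclg1 thus varied as widely among livers (SD 0.51 on the log2 scale) as among tumors (SD 0.51). T-HCC663, which was lowest in Suclg1 and Fh1, was also the lowest library in hepatocyte marker sum, and its part in these values was not tested.

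Within p21+/Tert mice, in which 4 tumors were compared with 4 livers, 6.49% of 15182 genes passed, and of the members Fh1 passed. It changed by -1.10 ± 0.25 on the log2 scale (SE, adjusted p = 0.0258, edgeR), 2.14-fold lower, and all 4 tumors were below all 4 livers. How many of all genes part 4 tumors from 4 livers in this way was not computed. The call was lost without NT662, NT663, or NT941 and without T-HCC663, T-HCC941, or the adenoma T-HCA992, where the adjusted p of edgeR was at most 0.0843. Mdh2 (0.40 ± 0.37, SE), Cs (0.34 ± 0.33), and Idh3a (0.51 ± 0.49) did not pass, and these 4 tumors hold both Ctnnb1-mutated tumors. The other 5 members had log2 fold changes from -0.51 (Suclg1) to -0.22 (Ogdh).

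Within p21+/TertCi mice, in which 2 tumors were compared with 2 livers, no gene passed by edgeR (0% of 15182 genes, with 1618 at an unadjusted p under 0.05, and 375 calls by DESeq2). All members except Suclg1 (0.06 ± 0.48, SE) had negative log2 fold changes. The values farthest from 0 were those of Idh3a (-1.03 ± 0.70, SE), Cs (-0.95 ± 0.47), and Mdh2 (-0.71 ± 0.52). Dlst (-0.65 ± 0.29, SE) had the smallest unadjusted p (0.0434, adjusted p = 0.455, edgeR).

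The difference between the genotypes in the change from liver to tumor, tested as an interaction, was not detectable at this size (0% of 15182 genes by edgeR, with 556 at an unadjusted p under 0.05, and 10 calls by DESeq2). The difference, p21+/TertCi minus p21+/Tert on the log2 scale, was -1.54 ± 0.85 (SE) for Idh3a, -1.30 ± 0.57 for Cs, -1.12 ± 0.64 for Mdh2, and 0.84 ± 0.42 for Fh1. The adjusted p of edgeR was 0.999942 for each of these 4, and the interval for Idh3a (2 SE on each side) ran from -3.24 to 0.16. Both Ctnnb1-mutated tumors are in the p21+/Tert group and none is in the p21+/TertCi group. The interaction therefore mixes genotype with driver class, and it holds tumors of the contrast on which the genes were selected. For Idh3a, Cs, and Mdh2 it cannot tell genotype from driver class, and no effect of genotype is read from these values.

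The tumors without a Ctnnb1, Egfr, or Hras mutation, which the selection did not use, were compared with the 6 livers. Both of these tumors are adenomas, so that in them the lack of these mutations and the histology cannot be told apart. Of 15182 genes, 8.1% passed, or 237 genes in place of 1230 with the mouse as a block, and none of the 9 members passed in either fit by edgeR. All 9 had negative log2 fold changes. Idh3a had the smallest unadjusted p, at -0.63 ± 0.19 on the log2 scale (SE, adjusted p = 0.0657, edgeR), and both tumors were below all livers. It passed with DESeq2 (adjusted p = 0.0239), with only these tumors and the livers in the edgeR fit (adjusted p = 0.0430), and without T-HCC662 or T-HCC663. Idh3b followed with -0.76 ± 0.30 (SE, adjusted p = 0.147, edgeR).

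Among the 9 other subunits of the cycle enzymes, 2 fell in tumors against livers and none rose, where 10.7% of all 13822 genes tested passed. Sdhb, the iron-sulfur subunit of succinate dehydrogenase, was 88.5 to 156 CPM in livers (median 135) and 43.2 to 75.8 CPM in tumors (median 64.3), without overlap, as in 5.11% of the genes tested. It changed by -1.04 ± 0.19 on the log2 scale (SE, adjusted p = 0.00481, edgeR), and it passed in all 12 fits with 1 library left out. The tested genes on its chromosome 4 had median log2 ratios to the own liver from -0.28 (T-HCC662) to 0.02, below 0 in 5 of 6 tumors, whereas the ratio of Sdhb itself was -1.33 to -0.22. Sucla2, the β subunit that makes ATP with Suclg1, was 65.2 to 122 CPM in livers and 29.7 CPM in T-HCC663 to 76.1 CPM in T-HCC662. It changed by -0.77 ± 0.22 on the log2 scale (SE, adjusted p = 0.0434, edgeR), and it was lower than in the own liver in 6 of 6 mice, a run of the same sign shared by 22.5% of all genes tested in either direction. Its call was lost in 9 of 12 fits with 1 library left out, all but those without T-HCC662, NT981, or NT984. T-HCA992, for which a Sucla2 mutation is described, had 60.6 CPM. The median log2 ratio of the tested genes on chromosome 14, where Sucla2 lies, was below 0 in 6 of 6 tumors, from -0.17 in T-HCC663 to -0.05, and that of Sucla2 was -1.86 in T-HCC663. From exome data the paper describes extensive rearrangement of chromosome 14 in T-HCC663 and a loss on chromosome 4 in T-HCC662 and TCi-HCC981. Whether Sdhb and Sucla2 lie in the altered segments was not examined here. The part of these DNA changes and of the chromosome-wide shifts was not tested. The list had a median log2 fold change of -0.47. Idh2, the NADP-dependent mitochondrial isocitrate dehydrogenase, chosen here after its values were seen, was 84.5 to 155 CPM in livers, 313 and 164 CPM in T-HCC662 and T-HCC663, and 65.9 and 72.8 CPM in T-HCC941 and TCi-HCC981.

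Of 14 genes for the entry of pyruvate, 1 rose and 1 fell, a share near the 10.7% called over all genes tested. Pdp1, a pyruvate dehydrogenase phosphatase, rose by 2.10 ± 0.49 on the log2 scale (SE, adjusted p = 0.0162, edgeR) from 1.01 to 2.00 CPM in livers to 0.946 to 10.9 CPM in tumors, which overlapped. The phosphatase Pdp2 fell by 1.07 ± 0.30 (SE, adjusted p = 0.0383, edgeR) from 11.7 to 27.5 CPM in livers to 5.24 to 17.5 CPM in tumors. Of 16 tested genes of cytosolic counterparts and side routes, 1 rose and 3 fell, beside the same 10.7% over all genes tested. Pck2, the mitochondrial phosphoenolpyruvate carboxykinase, rose by 2.11 ± 0.25 (SE, adjusted p = 0.000743, edgeR), and it was 3.80 to 7.94 CPM in livers and 16.1 to 37.7 CPM in tumors, without overlap, as in 5.11% of the genes tested. Mdh1, the cytosolic malate dehydrogenase, fell by 0.89 ± 0.21, Got1, the cytosolic aspartate aminotransferase, by 1.49 ± 0.38, and Pck1, the cytosolic counterpart of Pck2, by 2.08 ± 0.61 (SE, adjusted p = 0.0201, 0.0253, and 0.0463, edgeR). With 1 library left out, Pck2, Pdp1, and Mdh1 passed in all 12 fits, and Pdp2 was kept without T-HCC662 or NT981 and lost in the 10 others. Got1 was lost without NT662, NT663, NT941, T-HCC941, or T-HCA992 and in the fit that pairs tumor and liver by a block for the mouse (adjusted p = 0.0689, edgeR). Pck1 was kept without NT981 or TCi-HCA984 and lost in the 10 others, and its log2 fold change was -3.17 without TCi-HCA984.

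No gene passed among 8 for the assembly of succinate dehydrogenase and for lipoylation, 7 regulators of mitochondrial biogenesis, or 13 mitochondrial channel, import, and chaperone genes. Over all genes tested 10.7% passed. In the first list Mrps36, a part of the 2-oxoglutarate dehydrogenase complex, had a log2 fold change of -1.11 ± 0.51 (SE) at levels of at most 1.02 CPM, and Lias, the lipoic acid synthase, of -0.29 ± 0.16. Among the regulators, Esrra, a nuclear receptor, had -0.57 ± 0.31 (SE) and Gabpa, an ETS family factor, -0.26 ± 0.14. Phb2, a prohibitin, had -0.40 ± 0.20 (SE) and Tomm40, the pore of the outer membrane translocase, -0.22 ± 0.14. The median log2 fold change was -0.18, -0.16, and -0.15 in these lists. Set against the median of the channel, import, and chaperone genes, the log2 fold change of Fh1 was -0.62, that of Idh3b -0.39, and that of Idh3a 0.30, as values without a test.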

How the data were processed

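RNA was measured in 6 liver tumors and in non-tumoral liver of each tumor-bearing mouse. The authors isolated poly(A) RNA, sequenced it as paired ends, filtered reads by quality, aligned them to mm10 with the mCherry transgene added, and counted them per gene. The submitters' processing notes name Subread, SAMtools, and featureCounts 1.6.4. The deposited values are raw counts, whole read numbers per library for 24421 symbols, not normalized. The annotation release and the strandedness are not given in the sources used here. The authors corrected for sequencing run. Which library was in which run is not given in the sources used here, so no such term was fitted. There were 0 unused columns of sample values.

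The labels gave genotype and tissue, and tumors were put in classes by the mutations described in the paper. A p21+/Tert liver whose label holds an unlisted animal number was assigned to the mouse of T-HCC662 by elimination, since the supplementary column names include a liver of that mouse and the labels name the other 3. Tumor and liver of a mouse come from 1 animal and were paired on that ground, which for the mouse of T-HCC662 rests on the elimination. A check over 13822 genes, the correlation of a tumor and its own liver in their deviations from group means, did not settle the pairing. In the 4 p21+/Tert mice r was 0.0416 to 0.444, and the own liver correlated best among the p21+/Tert livers for 2 of 4 tumors, not for T-HCC663 or T-HCC941. With 2 p21+/TertCi mice the centring fixes the other values once 1 is known. Each library is from 1 tissue sample. The main fits took the 12 libraries of the 6 mice as independent. Their p-values measure the spread between libraries within groups, pooled over the groups of the model.

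Counts were scaled with TMM and tested with the quasi-likelihood test of edgeR 4.0.16 in R 4.3.3 after its filterByExpr filter, with Benjamini-Hochberg adjustment over all genes tested and a threshold of 0.05. All 12 libraries entered each model. SE values are the absolute log2 fold change over the square root of F. CPM use TMM-scaled library sizes, the pseudocount of log2 values was 1 CPM, and lengths are unions of GENCODE exons on GRCm38. The alternatives were DESeq2 1.42.0, RLE size factors, a filter of at least 1 count, a block for the mouse, fewer libraries in the fit, each library left out, both libraries of the mouse of T-HCC662 left out, and the median of a mitochondrial list as reference. The scripts were tested on simulated data.

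The members and the gene lists were chosen with earlier results of these data known. The genes named are the 9 members, of each other list those called in tumors against livers (up to the 4 of smallest p, or the 2 of smallest p where none was called), Sucla2, the 5 genes most like Idh3a by RMS difference among those with an SD of at least that of Idh3a divided by 2, and Idh2, chosen after its values were seen. Of the 5 genes most like Idh3a, 1 is not reported here.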

Additional observations from a re-analysis of the deposited data

Results flagged for a closer look

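Of 36 tests of a sample far from the others of its group (9 genes in the livers, the tumors, the p21+/Tert livers, and the p21+/Tert tumors), 6 passed. The nominal rate is 1 in 20, but the groups are nested, so that the same value can be flagged again. The tumor groups also mix driver classes, and T-HCC662 is in the contrast on which the genes were selected. The count is therefore not set against that rate. Mdh2 at 445 CPM in T-HCC662 stood apart both among the 6 tumors and among the 4 p21+/Tert tumors, where the next value was 172 CPM. Idh3b at 186 CPM in T-HCC662 stood apart in the same groups, with 116 CPM next. Among the 4 p21+/Tert livers (NT for non-tumoral), Idh3a was low in NT662 (31.3 CPM, next 35.1 CPM) and Mdh2 was low in NT941 (143 CPM, next 174 CPM).

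In Cs and Idh3a the log2 ratios to the own liver had opposite signs in tumors of different driver classes. For Cs in T-HCA992 that sign rests on a ratio near 0 (-0.03). The mean log2 ratio to the own liver was higher by 2.51 for Idh3a and by 1.94 for Cs in Ctnnb1-mutated than in Egfr- or Hras-mutated tumors, the contrast on which the genes were selected. Against the tumors without a Ctnnb1, Egfr, or Hras mutation it was higher by 1.92 for Idh3a and by 1.29 for Cs. These differences were not tested.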

How the results depend on the processing

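The direction of Fh1 in tumors against livers held in every alternative, and its call was lost with every gene of at least 1 count (-0.76, adjusted p = 0.0570, edgeR), as were those of Sucla2 (adjusted p = 0.0531) and Pck1 (adjusted p = 0.0508). The number of members called in tumors against livers was 0 with that filter and 2 with the mouse as a block, and 0 to 2 with 1 library left out. It was 0 to 1 with 1 library left out in p21+/Tert mice. In the tumors without a Ctnnb1, Egfr, or Hras mutation it was 1 with DESeq2, 1 with only these tumors and the livers, and 0 to 1 with 1 library left out.

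The number of genes called with DESeq2 was 2407 in place of 1477 in tumors against livers, 2109 in place of 986 in p21+/Tert mice, 375 in place of 0 in p21+/TertCi mice, 10 in place of 0 between genotypes, and 2248 in place of 1230 in the tumors without these mutations. In p21+/TertCi mice it was 1 with RLE size factors and 2 with every gene of at least 1 count. With the mouse as a replicate block it was 237 in place of 1230 in the tumors without these mutations. With 1 library left out it was 863 to 1988, 240 to 1192, 0 to 7, 0 to 0, and 196 to 1460 in the 5 comparisons in this order. The cause of these shifts was not tested.

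Signs turned only for values that did not pass the test. In tumors against livers the paired fit with the mouse as a block gave -0.18 for Cs, -0.30 for Idh3a, and -0.11 for Mdh2 (-0.45, -0.67, and -0.37 without both libraries of the mouse of T-HCC662, chosen after seeing the data, where 2 members were called), and it changed no call of a named gene other than those of Idh3b and Got1. With 1 library left out the ranges that crossed 0 in tumors against livers were -0.25 to 0.22 for Cs, -0.38 to 0.32 for Idh3a, and -0.36 to 0.21 for Mdh2. In p21+/Tert mice they were -0.075 to 0.83 for Idh3a and -0.17 to 0.59 for Mdh2. In p21+/TertCi mice the range was -0.10 to 0.21 for Suclg1, between genotypes -0.29 to 0.023 for Idh3b and -0.43 to 0.064 for Ogdh, and in the tumors without these mutations -0.82 to 0.35 for Cs and -0.15 to 0.10 for Suclg1. The described contrast of Ctnnb1-mutated with Egfr- or Hras-mutated tumors was 2.18 to 2.85 for Idh3a with 1 of the 4 tumors left out, also an alternative chosen after seeing the data. With 2 tumors a class and 2 p21+/TertCi mice, the number of animals limits the precision of these values.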
